A study of Homo sapiens with 15 samples.

Results

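The expression of 10 genes of antioxidant defence and aldo-keto reduction was followed in U251 cells, a human glioblastoma line, after ionizing radiation. They are the rows of the count table whose gene name is NFE2L3, AKR1C1, AKR1C2, AKR1C3, NQO1, TXNRD1, GCLM, GCLC, SRXN1 or HMOX1, which makes 10 of the 22447 genes in the table. NFE2L3 and AKR1C1 were chosen by their CPM in these libraries, which differed between 1 Gy and 6 Gy at 24 h, so their values are described here without a test, and the other 8 genes were tested. RNA-seq covered an unirradiated control, cells given 1 Gy and cells given 6 Gy, the irradiated cells being collected 6 h and 24 h later, with 3 libraries in each of the 5 groups. The control carries the label 0 h but was harvested together with the 24 h cells, so there was no control for the 6 h collection. Time in culture and irradiation therefore cannot be told apart in comparisons of 6 h with the control, or of 24 h with 6 h at a given dose. All groups are the same established line, and the study's methods call its replicates biological. The fit used 13 libraries. Control replicate III and, of the cells given 1 Gy and collected at 6 h, replicate II are absent from the authors' own table of comparisons, with no reason stated, and were left out. The left-out control is given for each of the 10 genes.

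NFE2L3 belongs, with NFE2L2 (NRF2), to the cap'n'collar family of transcription factors, which pair with small MAF proteins and bind antioxidant response elements. In unstressed cells NRF2 is held by KEAP1 and degraded, and oxidants release it to raise a set of protective enzymes. The classic targets make glutathione (GCLC and GCLM, the 2 subunits of glutamate-cysteine ligase), reduce quinones (NQO1), keep thioredoxin and peroxiredoxins working (TXNRD1 and SRXN1), break down heme (HMOX1) and reduce steroids and reactive carbonyls (the AKR1C enzymes). Ionizing radiation produces reactive oxygen species in irradiated cells.

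Library totals ran from 8691338 to 11719631 counts, and all 10 genes passed the filter on low counts that left 12719 genes for testing. Levels are given as CPM, read counts scaled to a common library size after TMM adjustment, and since CPM is not corrected for transcript length it is compared here between samples of a gene and never between genes. A gene was called where its adjusted p was under 0.05 and its log2 fold change was beyond 0.5 in either direction. Of 9 glial and glioma markers, 7 could be tested and OLIG2 was at 0 in all 15 libraries. The summed level of that list was 3697 to 4485 CPM over the fitted libraries. Most of it came from VIM and CD44, with group means of 1435 to 1775 CPM and 1616 to 1874 CPM. GFAP and S100B had group means of only 3.14 to 3.78 CPM and 1.51 to 2.43 CPM. Of the tested genes in the list, 0 were called in any comparison by edgeR or DESeq2, with 0 to 3 at an unadjusted p under 0.05. EPCAM, PECAM1 and HBB, defining markers of epithelial, endothelial and red blood cells, were at 0 in every library. Other genes of the epithelial, endothelial and blood cell lists were detected. CLDN4 had group means of 8.09 to 10.0 CPM, KDR 0.706 to 1.14 CPM and CD14 0.667 to 1.22 CPM. SYT1 and CDH5, a neuron and an endothelial marker, were called higher 24 h after 6 Gy than in the control, with marker list sums of 43.97 to 46.4 CPM against 28.9 to 32.8 CPM for 4 neuron genes and 10.2 to 12.3 CPM against 6.52 to 8.20 CPM for 4 endothelial genes. Their part in the results below was not tested.

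NFE2L3 was highest in the cells collected 24 h after 1 Gy. Its levels were 72.9 and 72.4 CPM in the control, 115, 111 and 118 CPM 24 h after 1 Gy, and 76.8, 84.5 and 81.4 CPM 24 h after 6 Gy. The 3 libraries of 1 Gy stood above all the others, and those of 6 Gy lay between them and the control without overlap. At 6 h it was at 68.3 and 62.3 CPM after 1 Gy, below both fitted controls, with a log2 fold change of -0.15 ± 0.0831 (SE). After 6 Gy it was at 68.0, 73.0 and 69.0 CPM at 6 h, overlapping the control. Its mean at 24 h after 1 Gy was 115 ± 3.35 CPM (SD, n = 3), 1.58 times the control mean of 72.6 ± 0.413 CPM (SD, n = 2), a log2 fold change of 0.66 ± 0.0744 (SE). After 6 Gy the log2 fold change over the control was 0.16 ± 0.0749 (SE), and 6 Gy over 1 Gy gave -0.51 ± 0.0652 (SE). The left-out control library read 58.7 CPM, lower than the other controls, and the left-out library of 1 Gy at 6 h read 68.2 CPM. With all 15 libraries the log2 fold change at 24 h became 0.75 for 1 Gy and 0.25 for 6 Gy. The gene (chr7:26191847-26226756, plus strand, hg19) overlaps no other row of the table. In a bulk library, fewer cells that express a gene and less RNA per cell cannot be told apart, for this gene and for those that follow.

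The genes whose log2 CPM followed NFE2L3 most closely over the 13 fitted libraries were DRAM1, EFEMP1, BIRC3, GCLM and PPP1CB, with Pearson correlations of 0.974, 0.961, 0.952, 0.948 and 0.947 among 10480 genes with a mean of at least 5 CPM. The libraries share their group structure, so the correlations mostly describe group means. BIRC3, an inhibitor of apoptosis that acts in NF-kB signalling, averaged 10.2 ± 0.509 CPM in the control, 18.0 ± 0.327 CPM 24 h after 1 Gy and 13.02 ± 1.31 CPM 24 h after 6 Gy (SD, n = 2, 3 and 3). DRAM1, a lysosomal membrane protein induced by p53 that acts in autophagy, averaged 86.1 ± 3.37 CPM, 128 ± 5.63 CPM and 92.1 ± 5.11 CPM in the same order of dose. GCLM is itself among the 10 genes.

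**Figure D1:**
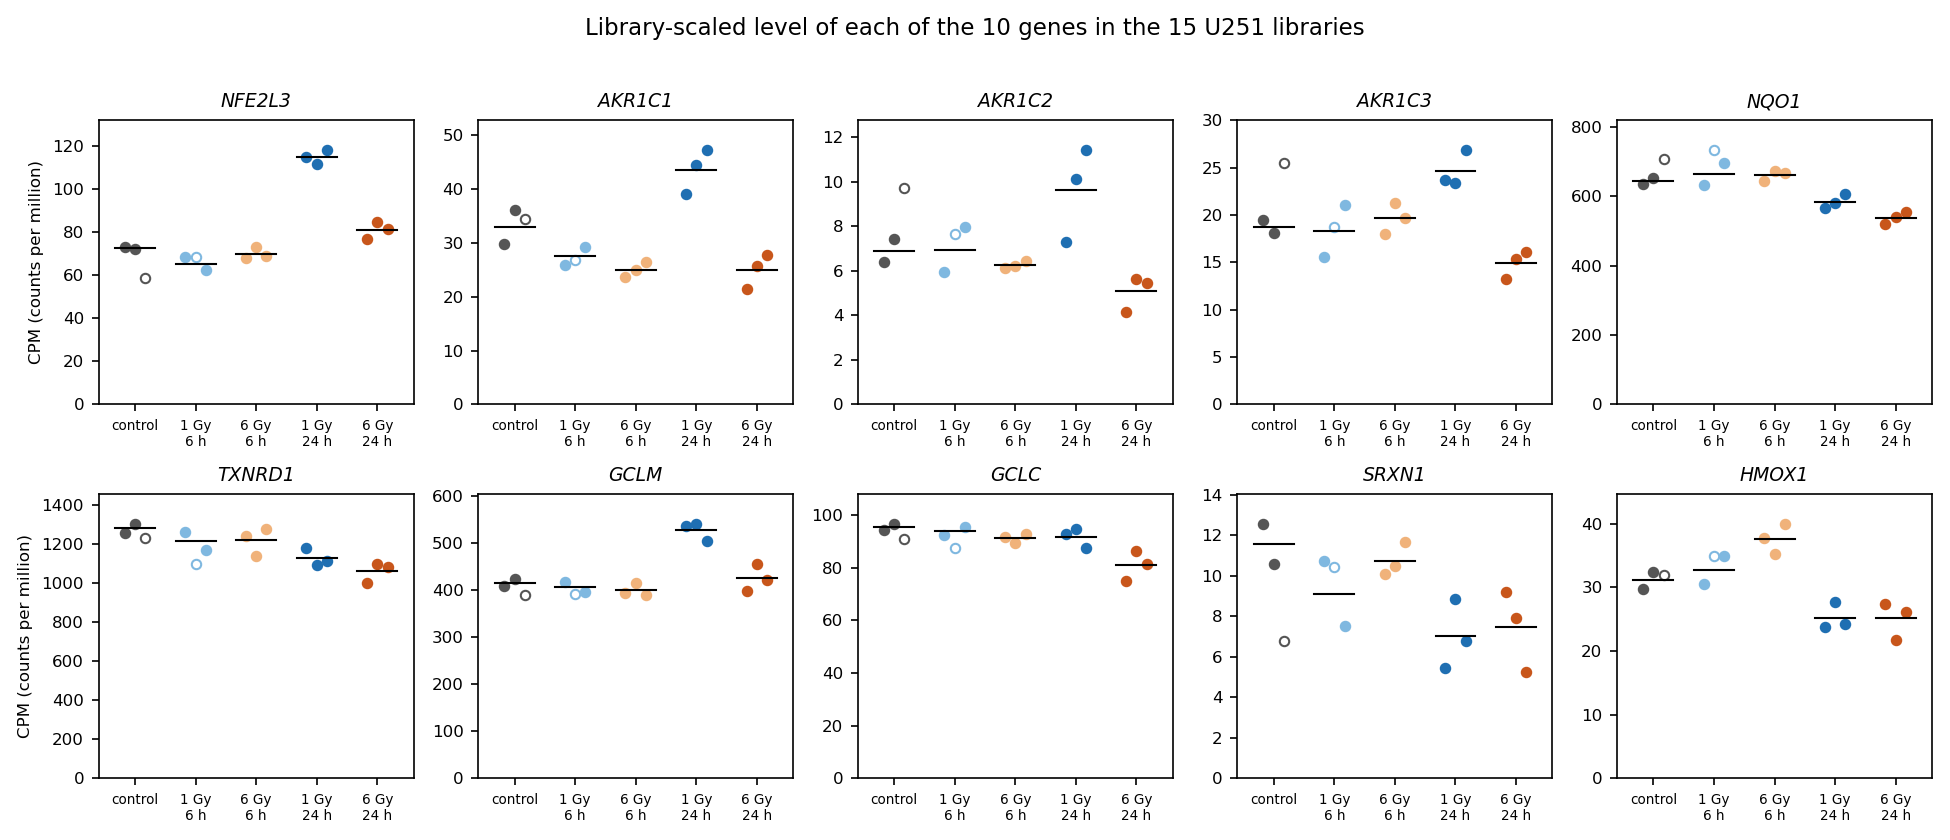
Level of each of the 10 genes in CPM (vertical axis, from 0) in every library, by group along the horizontal axis. Filled points are the 13 fitted libraries, open points the 2 left out, and the black line is the mean of the filled points. NFE2L3, AKR1C1 and GCLM had all 3 libraries of 1 Gy at 24 h above every other library, at 111 CPM or more, 39.2 CPM or more and 504 CPM or more.

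The 3 AKR1C genes, which encode cytosolic enzymes that reduce ketosteroids, prostaglandins and other carbonyls with NADPH, had lower levels 24 h after 6 Gy than 24 h after 1 Gy. AKR1C1 read 29.8 and 36.2 CPM in the control, 39.2, 44.4 and 47.2 CPM 24 h after 1 Gy, and 21.4, 25.7 and 27.7 CPM 24 h after 6 Gy. The 1 Gy libraries stood above both controls and the 6 Gy libraries below both. At 6 h its levels were 25.9 and 29.2 CPM after 1 Gy and 23.6, 25.0 and 26.4 CPM after 6 Gy, also below both controls. At 24 h the log2 fold change was 0.39 ± 0.114 (SE) for 1 Gy over the control and -0.41 ± 0.119 (SE) for 6 Gy over the control. At 6 h it was -0.27 ± 0.130 (SE) for 1 Gy and -0.40 ± 0.119 (SE) for 6 Gy. Without replicate II of the control, the 6 Gy value at 6 h was -0.25 and the 1 Gy value was -0.11. The left-out libraries read 34.5 CPM in the control and 26.8 CPM in 1 Gy at 6 h, within the range of the fitted ones in each group.

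AKR1C2 and AKR1C3 lie beside AKR1C1 on chromosome 10 (AKR1C1 chr10:5005454-5020158 on the plus strand, AKR1C2 chr10:5029968-5060225 on the minus strand and AKR1C3 chr10:5090958-5149878 on the plus strand, hg19). Their sequences are close enough to matter for counting. The coding sequences of AKR1C1 and AKR1C2, both 969 bases, were the same at 98% of positions, and 51.6% of the 50-base windows of AKR1C1 occurred unchanged in AKR1C2. For AKR1C1 and AKR1C3 the shares were 91.7% and 14.7%. Reads from shared stretches could have been split between the rows or dropped, and for the read length no source used here gives a value. The values of AKR1C2 and AKR1C3 therefore cannot be taken as independent of AKR1C1, which was picked for its 6 Gy against 1 Gy difference. The likeness extends upstream. The RefSeq windows from 250 bases before to 50 bases after the start of AKR1C1 (chr10:4963165-4963464, plus strand) and AKR1C2 (chr10:5003808-5004107, minus strand, both GRCh38.p14) were the same in 97.3% of 296 aligned columns. They are shown 5′ to 3′ because the pair is the closest in the family, with capitals at the 4 bases that differ and at the 4 bases of AKR1C1 that have no counterpart in AKR1C2.
AKR1C1: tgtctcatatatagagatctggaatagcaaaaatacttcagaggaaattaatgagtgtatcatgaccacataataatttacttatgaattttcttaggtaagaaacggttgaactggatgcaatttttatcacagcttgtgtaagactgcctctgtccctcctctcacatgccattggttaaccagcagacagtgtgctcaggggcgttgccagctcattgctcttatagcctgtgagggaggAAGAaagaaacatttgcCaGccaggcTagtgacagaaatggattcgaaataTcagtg
AKR1C2: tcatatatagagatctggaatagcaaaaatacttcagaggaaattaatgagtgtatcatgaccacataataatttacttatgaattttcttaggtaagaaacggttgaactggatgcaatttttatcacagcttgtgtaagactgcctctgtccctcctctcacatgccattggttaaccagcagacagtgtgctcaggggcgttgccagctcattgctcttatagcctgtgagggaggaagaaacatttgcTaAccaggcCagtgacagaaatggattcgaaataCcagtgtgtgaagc

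AKR1C2 had 6.39 and 7.43 CPM in the control, 7.31, 10.1 and 11.4 CPM 24 h after 1 Gy, and 4.15, 5.65 and 5.44 CPM 24 h after 6 Gy. The 1 Gy libraries overlapped the control, through replicate I, and the 6 Gy libraries lay below both other groups. It was lower with 6 Gy than with 1 Gy at 24 h, with a log2 fold change of -0.90 ± 0.178 (SE) and an adjusted p of 0.00739 by edgeR's quasi-likelihood test. This call was lost without replicate II of 1 Gy at 24 h (-0.85, adjusted p = 0.0503) or replicate I of 6 Gy at 24 h (-0.77, adjusted p = 0.0508). DESeq2 gave the gene no adjusted p in this comparison and so did not call it. Against the control neither dose was called at 24 h, at 0.45 (adjusted p = 0.125) for 1 Gy and -0.45 (adjusted p = 0.127) for 6 Gy. Without replicate I of 1 Gy at 24 h, the 1 Gy value was 0.64 (adjusted p = 0.0246) and passed. The left-out control library read 9.73 CPM, above both fitted controls, and with all 15 libraries the 6 Gy value against the control was -0.64 (adjusted p = 0.0199) and passed too. At 6 h the gene was at 5.93 and 7.96 CPM after 1 Gy and 6.14, 6.24 and 6.45 CPM after 6 Gy, not separated from the control. Counts behind these levels were low, at 41 to 106 per library.

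AKR1C3 read 19.5 and 18.0 CPM in the control, 23.7, 23.3 and 26.8 CPM 24 h after 1 Gy, and 13.3, 15.4 and 16.1 CPM 24 h after 6 Gy. The 3 groups did not overlap, in the order 1 Gy, control and 6 Gy. It was lower with 6 Gy than with 1 Gy at 24 h, by -0.72 ± 0.116 (SE) on the log2 scale with an adjusted p of 0.00169. Leaving out each library in turn gave values of -0.77 to -0.64 with an adjusted p of at most 0.0110, and all 15 libraries gave -0.72. At 6 h it was at 15.6 and 21.0 CPM after 1 Gy and 18.0, 21.2 and 19.7 CPM after 6 Gy, and the doses overlapped. The difference between the dose effects at 24 h and at 6 h, the interaction of dose and time, was -0.83 ± 0.175 (SE) with an adjusted p of 0.0305. That call did not hold with all 15 libraries (-0.81, adjusted p = 0.0980) and was lost without 7 of the 13 libraries. The weakest value came without replicate I of 1 Gy at 6 h (-0.62, adjusted p = 0.330). The other losses were without replicate II (-0.86, adjusted p = 0.0619) or III (-0.77, adjusted p = 0.0965) of 1 Gy at 24 h, replicate II (-0.77, adjusted p = 0.110) or III (-0.83, adjusted p = 0.0932) of 6 Gy at 6 h, and replicate I (-0.75, adjusted p = 0.0718) or III (-0.89, adjusted p = 0.0540) of 6 Gy at 24 h. Against the control at 24 h, 1 Gy gave 0.39 (adjusted p = 0.0461) and 6 Gy gave -0.33 (adjusted p = 0.0769), both under the fold minimum. The left-out control library read 25.5 CPM, inside the range of 1 Gy at 24 h. With it and the other left-out library in the fit, 1 Gy against the control was 0.22 (adjusted p = 0.293), and 6 Gy was -0.50 (adjusted p = 0.00952) and passed.

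A sum of the 3 rows does not depend on how shared reads were split among them, though it misses any that were dropped. The sum averaged 58.7 ± 4.21 CPM in the control (SD, n = 2), 77.8 ± 7.66 CPM 24 h after 1 Gy and 44.9 ± 5.44 CPM 24 h after 6 Gy (SD, n = 3 each). The single libraries were at 55.7 and 61.6 CPM in the control, 70.2, 77.9 and 85.5 CPM after 1 Gy, and 38.8, 46.7 and 49.2 CPM after 6 Gy. The 3 groups did not overlap, but the left-out control, at 69.8 CPM, was only just under the lowest 1 Gy library. At 6 h the sum averaged 52.8 ± 7.56 CPM after 1 Gy (SD, n = 2) and 50.9 ± 2.71 CPM after 6 Gy (SD, n = 3). AKR1C4, the fourth gene of the family, had a mean of at most 0.0566 CPM in any group.

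**Figure D2:**
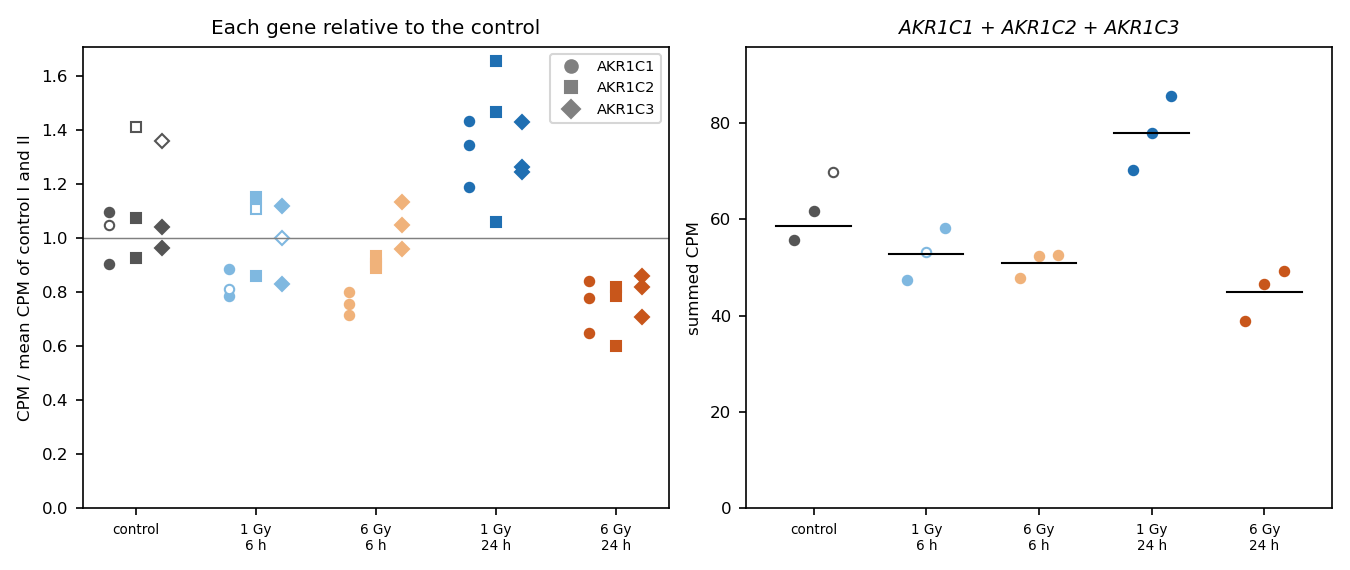
Left, level of AKR1C1, AKR1C2 and AKR1C3 in each library relative to the gene's mean in control replicates I and II (ratio of CPM, vertical axis). Right, the summed CPM of the 3 genes per library, with the mean of the fitted libraries as a line and the 2 left-out libraries as open symbols. The sum was 70.2 to 85.5 CPM 24 h after 1 Gy and 38.8 to 49.2 CPM 24 h after 6 Gy. It includes AKR1C1, which was picked for its difference between these groups.

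The genes closest to AKR1C1 over the 13 libraries were ZNF420, TIPRL, DDX5, PNISR and NDUFS1, at Pearson correlations of 0.937, 0.923, 0.915, 0.905 and 0.900. AKR1C2 came seventh at 0.896, and AKR1C3 had 0.786. DDX5, an RNA helicase, averaged 712 ± 24.3 CPM in the control, 753 ± 31.3 CPM 24 h after 1 Gy and 653 ± 43.4 CPM 24 h after 6 Gy (SD, n = 2, 3 and 3). Its doses lay closer together, relative to its level, than those of AKR1C1.

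GCLM, the modifier subunit of glutamate-cysteine ligase, the enzyme of the first step of glutathione synthesis, had its highest levels 24 h after 1 Gy. It had 409 and 423 CPM in the control, 536, 540.2 and 504 CPM 24 h after 1 Gy, and 399, 456 and 421 CPM 24 h after 6 Gy. The 1 Gy libraries lay above all others, and those of 6 Gy overlapped the control. At 6 h the levels were 417 and 395 CPM after 1 Gy and 394, 416 and 389 CPM after 6 Gy. The log2 fold change of 1 Gy over the control at 24 h was 0.34 ± 0.0666 (SE; adjusted p = 0.00151), and of 6 Gy over 1 Gy -0.31 ± 0.0591 (SE; adjusted p = 0.00603). Both differences passed the p threshold but were under the fold minimum, so neither counts as called. Leaving out each library in turn kept the adjusted p at or under 0.0497 for both. Against 1 Gy at 6 h, 1 Gy at 24 h gave 0.38 ± 0.0667 (SE; adjusted p = 0.000485). For 6 Gy over the control at 24 h the value was 0.03 ± 0.0663 (SE; adjusted p = 0.771). The left-out libraries, at 389 CPM in the control and 391 CPM in 1 Gy at 6 h, lay at the low end of their groups.

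GCLC, the catalytic subunit of the same enzyme, had its lowest levels 24 h after 6 Gy. It had 94.1 and 96.6 CPM in the control, 92.9, 94.9 and 87.5 CPM 24 h after 1 Gy, and 74.97, 86.3 and 81.2 CPM 24 h after 6 Gy. The 6 Gy libraries were below all other fitted libraries. The log2 fold change of 6 Gy over the control was -0.24 ± 0.0737 (SE; adjusted p = 0.0224), under the fold minimum, and that of 1 Gy was -0.06 ± 0.0735 (SE; adjusted p = 0.685). At 6 h the gene stood at 92.5 and 95.3 CPM after 1 Gy and 91.7, 89.4 and 92.9 CPM after 6 Gy. The left-out libraries read 90.9 CPM in the control and 87.5 CPM in 1 Gy at 6 h, each the lowest of its group.

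A short search of the promoters was made for the core of the antioxidant response element, written TGACNNNGC and looked for on both strands in the 300-base RefSeq windows (250 bases before to 50 after the start, GRCh38.p14). Windows were found for 9 of the 10 genes, 11 windows in all, and 3 of them held the core, those of GCLM and TXNRD1. Among 35116 such windows of all genes 13.3% held it. The GCLM window (chr1:93909381-93909680, minus strand) and the first of the 2 TXNRD1 windows (chr12:104215529-104215828, plus strand) are shown because both genes carry the core while their log2 fold changes over the control 24 h after 1 Gy were 0.34 (GCLM) and -0.18 (TXNRD1). Capitals mark the core as it reads on this strand or, in reverse complement, on the other.
GCLM: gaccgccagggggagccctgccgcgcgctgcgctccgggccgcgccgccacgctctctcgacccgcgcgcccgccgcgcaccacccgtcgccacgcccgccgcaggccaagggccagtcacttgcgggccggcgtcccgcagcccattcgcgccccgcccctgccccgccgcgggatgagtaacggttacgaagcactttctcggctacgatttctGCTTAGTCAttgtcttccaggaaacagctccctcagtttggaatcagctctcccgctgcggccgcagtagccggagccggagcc
TXNRD1: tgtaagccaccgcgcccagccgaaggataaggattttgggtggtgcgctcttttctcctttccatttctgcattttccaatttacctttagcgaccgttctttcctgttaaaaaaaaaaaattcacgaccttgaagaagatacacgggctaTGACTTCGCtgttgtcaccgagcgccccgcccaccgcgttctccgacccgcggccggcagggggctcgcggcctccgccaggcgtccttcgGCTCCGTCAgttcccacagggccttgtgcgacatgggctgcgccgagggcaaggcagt
The core begins 34 bases before the start in GCLM. A match describes letters only, and a window without it says nothing of elements farther away.

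**Figure D3:**
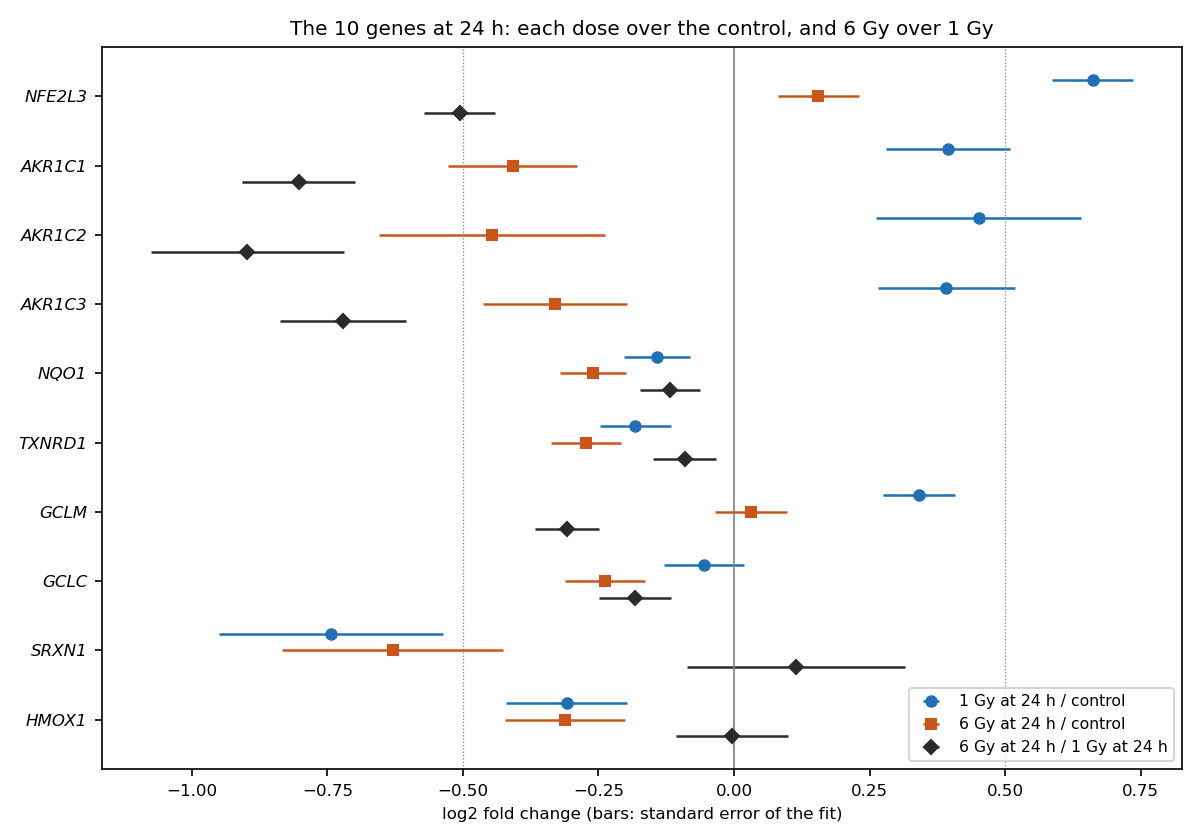
Log2 fold change of the 10 genes at 24 h (horizontal axis, bars are standard errors of the fit) for 1 Gy over the control, 6 Gy over the control and 6 Gy over 1 Gy. Dotted lines mark the fold minimum of 0.5. AKR1C1, AKR1C2 and AKR1C3 had 1 Gy to the right of 0 and 6 Gy to the left, at 0.39 to 0.45 and -0.45 to -0.33.

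The classic NRF2 targets NQO1 and TXNRD1 had their lowest mean levels 24 h after 6 Gy. NQO1, which reduces quinones by 2 electrons at a time, had 635 and 653 CPM in the control, 565, 581 and 605 CPM 24 h after 1 Gy, and 519, 541 and 554 CPM 24 h after 6 Gy. The 3 groups did not overlap, in the order control, 1 Gy and 6 Gy. The difference between the doses at 24 h, 6 Gy over 1 Gy, was -0.12 ± 0.0551 (SE; adjusted p = 0.250) and was not called. At 6 h NQO1 was at 634 and 697 CPM after 1 Gy and 644, 673 and 666 CPM after 6 Gy. The 6 Gy value over the control at 24 h was -0.26 ± 0.0612 (SE; adjusted p = 0.00388), and the 1 Gy value was -0.14 ± 0.0613 (SE; adjusted p = 0.136), both under the fold minimum. The left-out libraries read 707 CPM in the control and 733 CPM in 1 Gy at 6 h, each the highest of its group.

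TXNRD1, the cytosolic thioredoxin reductase, had 1257 and 1300.4 CPM in the control, 1179, 1089 and 1113 CPM 24 h after 1 Gy, and 999, 1094 and 1083 CPM 24 h after 6 Gy. Both irradiated groups were below the control, and they overlapped each other. The log2 fold change over the control was -0.18 ± 0.0647 (SE; adjusted p = 0.0694) for 1 Gy and -0.27 ± 0.0646 (SE; adjusted p = 0.00410) for 6 Gy, neither past the fold minimum. At 6 h, 1258 and 1170.0 CPM after 1 Gy and 1237, 1139 and 1276 CPM after 6 Gy reached into the range of the control. The left-out libraries were at 1227 CPM in the control and 1095 CPM in 1 Gy at 6 h. Its span on chromosome 12 (chr12:104609557-104744085, plus strand, hg19) contains EID3 on the same strand, which had a mean of 5 counts.

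SRXN1, which reduces overoxidized peroxiredoxins, was called lower at 24 h after either dose, on calls that rested on single libraries. It had 12.6 and 10.6 CPM in the control, 5.44, 8.85 and 6.77 CPM 24 h after 1 Gy, and 9.22, 7.93 and 5.23 CPM 24 h after 6 Gy. Both irradiated groups lay below the control and overlapped each other, but the left-out control, at 6.79 CPM, fell inside them. The log2 fold change over the control was -0.74 ± 0.207 (SE; adjusted p = 0.0209) for 1 Gy and -0.63 ± 0.204 (SE; adjusted p = 0.0286) for 6 Gy. With all 15 libraries they were -0.53 (adjusted p = 0.131) and -0.41 (adjusted p = 0.184), and neither was called. The 1 Gy call was also lost without control replicate I (-0.62, adjusted p = 0.193) or II (-0.86, adjusted p = 0.0599), and without replicate I (-0.57, adjusted p = 0.0894) or III (-0.73, adjusted p = 0.0573) of 1 Gy at 24 h. The 6 Gy call was lost without control replicate I (-0.51, adjusted p = 0.208) or II (-0.75, adjusted p = 0.0662) or replicate III of 6 Gy at 24 h (-0.43, adjusted p = 0.144). At 6 h the levels were 10.7 and 7.52 CPM after 1 Gy and 10.1, 10.5 and 11.7 CPM after 6 Gy. Against 6 Gy at 6 h, 6 Gy at 24 h was called lower at -0.53 ± 0.188 (SE; adjusted p = 0.0339). That call was lost with all 15 libraries (-0.53, adjusted p = 0.0719) and without replicate II (-0.54, adjusted p = 0.0635) or III (-0.46, adjusted p = 0.117) of 6 Gy at 6 h or replicate III of 6 Gy at 24 h (-0.33, adjusted p = 0.194). The gene had 51 to 118 counts per library.

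HMOX1, the inducible heme oxygenase, was lower at 24 h than at 6 h after 6 Gy. It had 27.5, 21.8 and 26.2 CPM 24 h after 6 Gy against 37.8, 35.2 and 40.0 CPM 6 h after 6 Gy, with no overlap. Between these times the log2 fold change was -0.58 ± 0.0986 (SE; adjusted p = 0.000101), and without replicate II of 6 Gy at 24 h it was -0.49 (adjusted p = 0.00103), just under the fold minimum. In the control HMOX1 had 29.8 and 32.5 CPM, and after 1 Gy 30.5 and 34.9 CPM at 6 h and 23.8, 27.7 and 24.3 CPM at 24 h. After 1 Gy it was also lower at 24 h than at 6 h, without overlap. That value, -0.37 ± 0.111 (SE; adjusted p = 0.0247), was under the fold minimum. The interaction of dose and time was -0.21 ± 0.149 (SE; adjusted p = 0.622) and was not called. The control lay between the 6 h libraries of 6 Gy and the 24 h libraries of both doses. Over the control, 6 Gy gave 0.27 ± 0.108 (SE; adjusted p = 0.219) at 6 h and -0.31 ± 0.111 (SE; adjusted p = 0.0457) at 24 h, and 1 Gy at 24 h gave -0.31 ± 0.111 (SE; adjusted p = 0.0733). None of these was called. The left-out libraries, at 31.9 CPM in the control and 35.0 CPM in 1 Gy at 6 h, were close to their groups.

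Counted together, few of the 8 tested genes were called in any comparison. At 6 h, 0 of 8 were called after 1 Gy and 0 of 8 after 6 Gy, beside 0% and 1.07% of all 12719 tested genes. At an unadjusted p under 0.05 these counts were 0 and 1, and DESeq2 also called 0 of the genes it gave an adjusted p. The 1 Gy comparison at 6 h had no call among all genes, with a lowest adjusted p of 0.297, although an unadjusted p under 0.05 was reached by 166 genes in the upward and 229 in the downward direction. At 24 h, 1 of 8 was called lower after 1 Gy, where 4.42% of all genes were called in either direction and 1.23% lower. Likewise 1 of 8 was called lower after 6 Gy, where 7.77% were called in either direction and 2.19% lower. The gene was SRXN1 in each case, and the comparisons share their control. Without the fold minimum, 5 of 8 (NQO1, TXNRD1, GCLC, SRXN1 and HMOX1) were lower at an adjusted p under 0.05 after 6 Gy at 24 h, where 11.5% of all genes were. Leaving out each library in turn gave -0.28 to -0.23 for NQO1, -0.30 to -0.23 for TXNRD1 and -0.29 to -0.19 for GCLC. SRXN1 gave -0.81 to -0.43 and HMOX1 -0.38 to -0.22. The adjusted p of these 5 genes did not stay under 0.05 throughout, and the fits without a control replicate had a single control. The median log2 fold change of the 8 genes in that comparison was -0.29, against -0.00084 over all tested genes.

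Between the doses at 24 h, 2 of 8 genes (AKR1C2 and AKR1C3) were called lower with 6 Gy than with 1 Gy. There 0.44% of all genes were called in either direction and 0.173% lower. The 2 genes are those that may share reads with AKR1C1. At 6 h 0 of 8 were called between the doses, with 0 at an unadjusted p under 0.05 and 0 by DESeq2, against 0.582% of all genes. The interaction of dose and time was called for 1 of 8, AKR1C3, and for 0.291% of all genes. Between the times, 0 of 8 were called for 24 h over 6 h after 1 Gy, where 5.48% of all genes were called. There 5 had an unadjusted p under 0.05 and 4 an adjusted p under 0.05, AKR1C3 and GCLM higher and NQO1 and HMOX1 lower, and DESeq2 called 0. After 6 Gy, 2 of 8 (SRXN1 and HMOX1) were called lower at 24 h than at 6 h. There 10.6% of all genes were called in either direction and 3.06% lower.

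Other genes of the same pathways were taken from 9 lists of 100 genes in all, of which 86 could be tested. At 24 h after 1 Gy 3 of the 86 were called higher and 3 lower than the control, and after 6 Gy 5 were higher and 3 lower, beside the shares of all genes called given above. At 6 h edgeR and DESeq2 each called 0 after 1 Gy and 0 after 6 Gy, with 2 and 15 at an unadjusted p under 0.05. At 24 h the median log2 fold changes of the 86 genes were 0.083 for 1 Gy and 0.074 for 6 Gy, against 0.00083 and -0.00084 over all tested genes. The higher genes at either dose were IDH1, which makes NADPH in the cytosol, PRDX5, a peroxiredoxin, and ABCC1, an exporter of glutathione conjugates. After 6 Gy GSTP1, a glutathione transferase, and GGT1, which breaks down extracellular glutathione, were also called. The lower genes at either dose were AKR1B10, an aldo-keto reductase outside the AKR1C group, OSGIN1, an oxidative stress induced growth inhibitor, and SLC7A11, the cystine transporter that feeds glutathione synthesis.

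AKR1B10 had 12.7 and 12.0 CPM in the control, 5.95, 5.63 and 7.21 CPM 24 h after 1 Gy, and 5.37, 5.35 and 4.31 CPM 24 h after 6 Gy. Neither irradiated group overlapped the control, whose left-out library read 12.6 CPM, and the gene was lower after either dose. Over the control the log2 fold change was -0.98 ± 0.160 (SE; adjusted p = 0.000287) for 1 Gy and -1.29 ± 0.165 (SE; adjusted p = 9.67e-06) for 6 Gy. IDH1 had 56.5 and 53.9 CPM in the control, 91.8, 93.0 and 92.1 CPM 24 h after 1 Gy, and 87.5, 92.9 and 97.1 CPM 24 h after 6 Gy, a log2 fold change of 0.74 for either dose, and the left-out control read 55.5 CPM. SLC7A11 had 422 and 408 CPM in the control, 319.9, 283 and 262 CPM 24 h after 1 Gy, and 277, 307 and 287 CPM 24 h after 6 Gy. The left-out control read 341 CPM, far below the other controls and not far above the highest 1 Gy library. The log2 fold changes of -0.53 and -0.51 stood close to the fold minimum, and with all 15 libraries they were -0.44 and -0.43, under it.

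Some of these calls depended on the libraries used. Over 19 alternative fits, the calls of AKR1B10 and IDH1 at either dose, OSGIN1 at 1 Gy and ABCC1 and GSTP1 at 6 Gy held in all of them, while those of PRDX5 and SLC7A11 held in 14 to 15 and were lost with all 15 libraries. For PRDX5 the left-out control, at 142 CPM, lay among the libraries of 1 Gy at 24 h (135 to 185 CPM). With no low-count filter (0.4999) and by DESeq2 (0.50) ABCC1 at 1 Gy was just under the fold minimum, and DESeq2 did not call GGT1 at 6 Gy (0.66, adjusted p = 0.0801). At 1 Gy, ABCC1 was lost without control replicate II (0.43, adjusted p = 0.0936), replicate III of 1 Gy at 6 h (0.50, adjusted p = 0.00299) or replicate I of 1 Gy at 24 h (0.39, adjusted p = 0.0233). PRDX5 (0.42, adjusted p = 0.0130) and SLC7A11 (-0.46, adjusted p = 0.00176) were lost at 1 Gy without replicate III of 1 Gy at 24 h, under the fold minimum. At 6 Gy, GGT1 was lost without control replicate II (0.48, adjusted p = 0.250) or replicate I of 6 Gy at 24 h (0.58, adjusted p = 0.0650). OSGIN1 was lost at 6 Gy without replicate II (-0.45, adjusted p = 0.00765) or III (-0.45, adjusted p = 0.0118), and PRDX5 without replicate III (0.50, adjusted p = 0.00709), of 6 Gy at 24 h. SLC7A11 was lost at 6 Gy without control replicate I (-0.49, adjusted p = 0.00435) or replicate I of 6 Gy at 24 h (-0.48, adjusted p = 0.000566).

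Of 12 genes in the list of cap'n'collar and KEAP1 regulators 11 were tested. Against the control edgeR and DESeq2 each called 0 of these in any group, beside the shares of all genes given above. At an unadjusted p under 0.05 there were 0 of them for 1 Gy and 2 for 6 Gy at 6 h, then 2 for 1 Gy and 5 for 6 Gy at 24 h. NFE2L2, which encodes NRF2, averaged 77.5 ± 0.110 CPM in the control (SD, n = 2), 84.3 ± 1.76 CPM 24 h after 1 Gy and 81.5 ± 8.85 CPM 24 h after 6 Gy (SD, n = 3 each). Its left-out control read 72.5 CPM, below both fitted controls. KEAP1 averaged 83.8 ± 5.13 CPM, 76.2 ± 1.99 CPM and 70.1 ± 2.63 CPM in the same order of dose, and its 6 Gy value over the control, -0.26 ± 0.0794 (SE; adjusted p = 0.0226), was under the fold minimum. All 3 control libraries of KEAP1 lay between 80.2 and 87.4 CPM. Over all lists, edgeR and DESeq2 each called 0 of the 86 genes between the doses at 6 h, between the doses at 24 h and in the interaction, with 8, 14 and 10 at an unadjusted p under 0.05. Of all tested genes edgeR called only 0.582%, 0.44% and 0.291% there, so 0 of 86 does not set these lists apart.

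**Figure D4:**
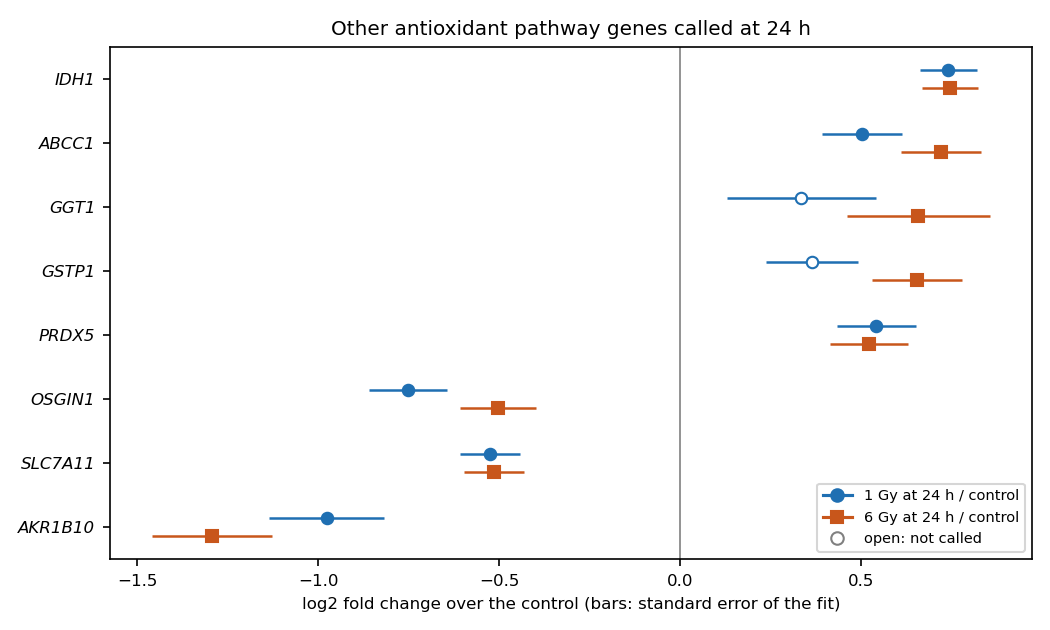
Log2 fold change over the control at 24 h (horizontal axis, bars are standard errors of the fit) for the 8 genes of the other antioxidant pathway lists that were called at either dose, with open symbols where the gene was not called at that dose. Each gene had the same sign after 1 Gy and after 6 Gy, from -0.98 and -1.29 for AKR1B10 to 0.74 at either dose for IDH1.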

How the data were processed

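Poly(A) RNA of 15 U251 libraries was made into NEBNext Ultra libraries and sequenced. The authors used TopHat to place the reads on hg19 and HTSeq to count them per transcript, and the deposited table holds raw counts of 22447 genes. For versions, read length and strand setting no source used here gives a value. A second deposited table, which holds the authors' scaled values of 13 libraries, fold changes, p-values and calls, was not used except for the list of libraries it covers. The 10 genes and the pathway and marker lists were chosen with earlier results of these data known.

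Counts were analysed with edgeR 4.0.16 in R 4.3.3. Its filterByExpr (minimum count 10, total 15, large group size 10, proportion 0.7) kept 12719 genes, libraries were scaled by TMM, and a quasi-likelihood fit over 5 groups and 13 libraries (8 residual and 13.5 prior degrees of freedom) gave 9 comparisons. The Benjamini and Hochberg adjustment ran over all tested genes, and p-values measure the spread between these libraries. The spread between libraries, as the common biological coefficient of variation, was 6.26%. Each standard error (SE) of a log2 fold change is its absolute value divided by the square root of the F statistic of the quasi-likelihood test. For NFE2L3 and AKR1C1 the SE only sizes the uncertainty, and no test is drawn from it. The script was tested on simulated counts.

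Named genes were the 10 genes, up to 4 called genes of each list per comparison by lowest adjusted p, and the 5 genes with at least 5 CPM nearest to NFE2L3 and to AKR1C1 by correlation of log2 CPM (prior count 2). The text names a part of these. NFE2L2 and KEAP1 were named after their values were seen. Alternatives were RLE size factors, no low-count filter, all 15 libraries, the replicate number as a block, DESeq2 1.42.0, no fold minimum, summed AKR1C rows and each library left out in turn. A block with all 15 libraries was added after the data were seen. Promoter windows (RefSeq, GRCh38.p14) and coding sequences were compared with Biopython 1.88, and figures were drawn with matplotlib 3.10.9 in Python 3.11.15.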

Additional observations from a re-analysis of the deposited data

Results flagged for a closer look

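The results below were picked out because the effect of 1 Gy and that of 6 Gy, or the dose effects at the 2 times, differed. At 24 h AKR1C2 was lower after 6 Gy than after 1 Gy by a tested log2 difference of -0.898, and AKR1C3 by -0.722. For AKR1C3 the tested difference between the dose effects at 24 h and at 6 h was -0.831, which did not pass with all 15 libraries. AKR1C1 had all 3 libraries of 1 Gy above the control mean at 24 h and all 3 of 6 Gy below it, with a log2 ratio of the 6 Gy mean to the 1 Gy mean of -0.808. That difference was not tested, since the gene was picked for it, and the 3 genes may share reads.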

How the results depend on the processing

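Across the 8 tested genes, 1386 of 1434 alternative values kept their side of the thresholds, 26 fell below them, 22 passed them and 0 changed direction where a value had passed. Most of the 1434 values belong to genes and comparisons not called in the main fit. The 26 losses could come only from the few that were called. Most of the 22 passed only because the fold minimum was removed. With all 15 libraries the calls among the 8 genes were 0 at 24 h after 1 Gy, 2 at 24 h after 6 Gy, 1 for 24 h over 6 h after 6 Gy and 0 in the interaction. In the same order 568, 1055, 1319 and 21 of all 12597 genes tested in that fit were called. The main fit did not pair the libraries by replicate number. Deviations from the group mean were positively correlated in all 22 same-number pairs, from 0.0287 to 0.256 with a mean of 0.111, and 11 were above 0.1. Pairs of different numbers averaged -0.054, with 3 of 45 above 0.1. Libraries of the same number were thus more alike, and what they share was not tested. With the replicate block, 2 of the 8 genes were called after 6 Gy at 24 h, SRXN1 and AKR1C2 (-0.52, adjusted p = 0.0278). List genes called were 3 after 1 Gy at 24 h (without ABCC1, PRDX5 and SLC7A11), 5 after 6 Gy at 24 h (without OSGIN1, PRDX5 and SLC7A11) and 1 between the doses at 6 h. In these 3 comparisons 613, 1004 and 86 of all genes were called with the block. All genes called were 109 between the doses at 24 h and 88 in the interaction. The block with all 15 libraries gave 0 of the 8 genes at 24 h after 1 Gy, where 623 of all genes were called.

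With no low-count filter, all genes called were 1 for 1 Gy at 6 h, 95 between the doses at 24 h and 104 in the interaction, and 1 list gene was called between the doses at 6 h. DESeq2 called 33 genes between the doses at 24 h, and left the adjusted p of AKR1C2 and SRXN1 empty in 3 comparisons. These were 6 Gy over the control at 6 h, 6 Gy over 1 Gy at 24 h and the interaction. Without a fold minimum, the 8 genes, list genes and all genes called were 3, 14 and 1538 after 1 Gy at 24 h, 5, 24 and 2999 after 6 Gy at 24 h, 4, 20 and 2018 for 24 h over 6 h after 1 Gy, and 6, 29 and 4380 after 6 Gy. All genes called without it were 366 after 6 Gy at 6 h, and 134 and 465 between the doses at 6 h and 24 h.

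Leaving out each library in turn, the calls among the 8 genes ran from 0 to 1 at 24 h after 1 Gy and likewise after 6 Gy, from 1 to 2 between the doses at 24 h, from 0 to 1 for 24 h over 6 h after 1 Gy, from 1 to 2 after 6 Gy, and from 0 to 1 in the interaction. List genes called between the doses at 6 h ran from 0 to 1. All genes called ran from 90 to 142 after 6 Gy at 6 h, from 24 to 103 between the doses at 24 h and from 20 to 59 in the interaction. The causes were not tested. AKR1C2 and SRXN1 had the fewest counts of the 10 genes and the largest standard errors.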

Other observations

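Between 6 h and 24 h, 7 of the 86 tested genes of the antioxidant lists were called after 1 Gy (5 higher and 2 lower at 24 h) and 9 after 6 Gy (6 higher and 3 lower), beside 5.48% and 10.6% of all tested genes. AKR1B10 and OSGIN1 were lower at 24 h after either dose, at -0.80 and -0.96 on the log2 scale after 1 Gy and -1.18 and -0.74 after 6 Gy, where AKR1B10 after 1 Gy was lost without replicate III of 1 Gy at 6 h (-0.62, adjusted p = 0.0528). CAT, the catalase that breaks down hydrogen peroxide, averaged 106 ± 5.44 CPM 24 h after 1 Gy and 73.3 ± 0.645 CPM 6 h after it (SD, n = 3 and 2), a log2 fold change of 0.53 with an adjusted p of 2.57e-05 by edgeR. After 6 Gy, MAFK, a small MAF partner of the cap'n'collar factors, averaged 47.5 ± 1.88 CPM at 24 h and 30.5 ± 1.95 CPM at 6 h (SD, n = 3 each), a log2 fold change of 0.64 with an adjusted p of 2.14e-05. Both of these calls held in 19 of 19 alternative fits, whereas CAT after 6 Gy (0.50) and PRDX5 after 1 Gy (0.50) stood at the fold minimum and held in 9 of 19 each.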
